A study of Mus musculus with 3 samples.

Results

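The genes described here are 10 genes of branched-chain amino acid breakdown and the glutamine synthesis linked to it. They were tested among 17460 genes on whole-mouse arrays. Of the 17460, 12995 had a gene symbol. The others were counted as genes without one, and whether each is a separate gene was not checked. The 10 genes are Bcat2, Bckdha, Bckdhb, Dbt, Bckdk, Ivd, Mccc1, Mccc2, Hibadh and Glul, chosen by name. Every non-control probe whose transcript accession belongs to one of them was taken, which gave 11 probes, of which 2 are for Mccc1 and 1 for each other gene. All 11 probes were well above background in both channels of all 3 arrays and none was saturated, so all 10 genes passed the filter on dim probes and were tested. None of the 10 differed between genotypes past the threshold.

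Leucine, isoleucine and valine are broken down largely outside the liver, and skeletal muscle is a main site of the first step. In that step a transaminase moves the amino group to 2-oxoglutarate and so makes glutamate and a branched-chain keto acid. The branched-chain keto acid dehydrogenase complex then commits the carbon chain to oxidation, and a kinase that phosphorylates the complex and a phosphatase that reverses it set its activity. Separate routes for each amino acid follow in the mitochondrial matrix, while muscle releases much of the nitrogen as glutamine and alanine. FoxO1 is a forkhead transcription factor held in check by insulin signalling and known for its part in the fasting response of muscle.

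The mice were male C57BL/6 controls and mFoxO1KO animals, in which Foxo1 can be deleted inducibly in skeletal muscle, and the tissue was muscle of the lower limb. Mice of both genotypes, controls included, ate an AIN93G diet with doxycycline at 0.625 g/kg between 8 and 14 weeks of age. The promoter that drives the deletion, and the alleles the controls carry, are not given in the sources used here. RNA of 3 control and 3 mFoxO1KO samples, each a biological replicate per the series' design, was hybridised in pairs to 3 arrays of 2 colours, with control RNA in Cy3 and knockout RNA in Cy5 on every array. Dyes were not swapped on any array, and dye and genotype cannot be told apart for any single probe.

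The level of a gene is given below as log2 intensity in each channel, after dye normalization within arrays and quantile normalization of mean intensity between them, and levels are compared only within a gene. The ratio is the log2 ratio of knockout over control on an array, where 0 means equal signal and 1 means a doubling. Errors after ± are the SD over the 3 arrays, intervals are 95% intervals from limma, and adjusted p-values are from limma with Benjamini-Hochberg adjustment over all 17460 genes, with 0.05 as the threshold. Foxo1 itself had ratios of -1.50, -2.42 and -2.27, a mean of -2.06 ± 0.49 (limma, adjusted p = 0.0278), and its second probe -1.39 ± 0.61. Without array 2 Foxo1 did not pass (limma, adjusted p = 0.103), and whether its probes lie in the deleted part is not known here. Over all genes 481 passed, which is 2.75%, and the count was 50 without array 2, 154 without array 3 and 0 with an intensity trend and robust variances in limma.

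None of the 10 genes passed the threshold in limma, where 2.75% of all genes tested did, 2.06% as higher and 0.699% as lower in the knockout. By unadjusted p, 1 of 10, Hibadh, was below 0.05, where 26.8% of all genes were. Mean ratios ran from -0.34 for Dbt to 0.20 for Bckdha, with 5 above 0, 5 below 0 and a median of 0.014, close to the 0.0068 of all genes tested. No member had an absolute mean ratio above 0.5, which 4.87% of all genes had. Bckdha was above 0 on all 3 arrays, as 27.9% of all genes were, and Hibadh below 0 on all 3, as 24.5% were. The other 8 changed sign between arrays, whereas 52.4% of all genes tested kept 1 sign. Median centring in place of loess raised the median of all genes to 0.156. Under that setting 9 of the 10 had mean ratios above 0, as did 13786 of the 17460 genes tested. The median of the 10 was then 0.24, so their even split around 0 depends on the dye normalization. Ivd, Mccc2, Hibadh and Glul were the genes that moved above 0 (0.22, 0.021, 0.041 and 0.087). The median SD of the 10 genes over arrays was 0.166, against 0.113 for all genes. The plot of ratios per array shows that the arrays of a gene often lay further apart than its mean lay from 0.

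**Figure D1:**
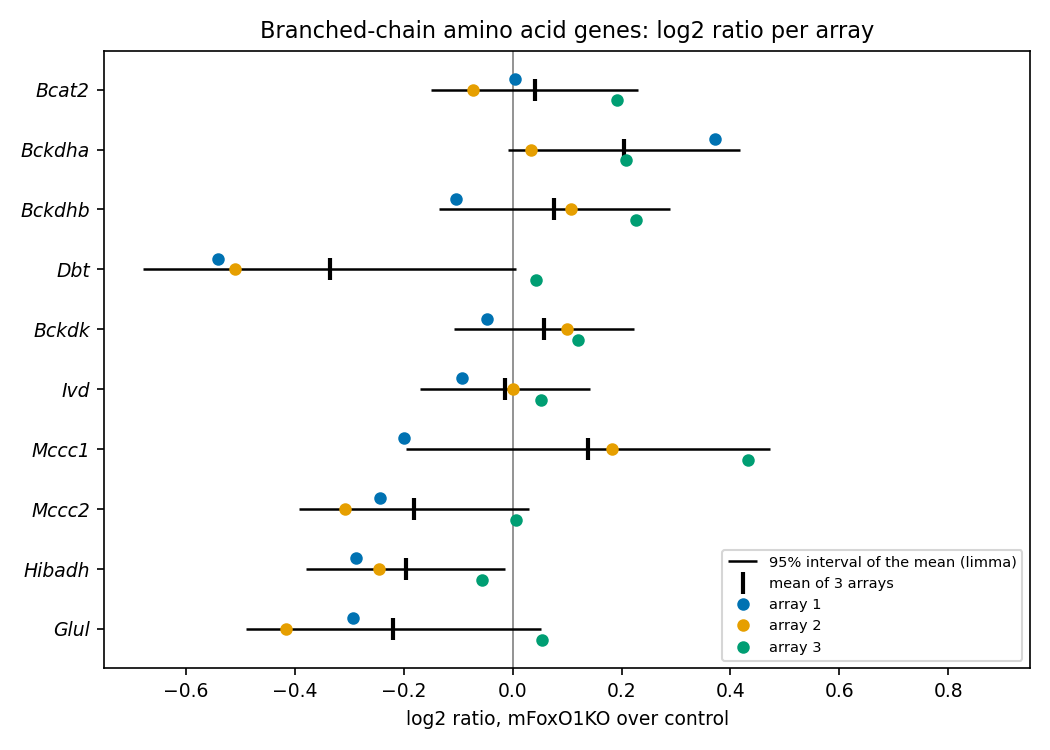
Log2 ratio of mFoxO1KO over control (x axis) for the 10 genes (rows). Coloured points are the 3 arrays, black ticks their mean and black lines the 95% interval of the mean from limma. Hibadh alone has an interval that leaves out 0, and array 3 is the rightmost point for every gene but Bckdha.

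In order of their mean ratios the genes were Dbt, Glul, Hibadh, Mccc2, Ivd, Bcat2, Bckdk, Bckdhb, Mccc1 and Bckdha. Every pair of neighbours in that order had overlapping intervals. The widest interval was that of Dbt, from -0.68 to 0.0066, and no interval of the 10 reached beyond -0.68 or 0.47.

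Bcat2 encodes the mitochondrial branched-chain aminotransferase, the enzyme of the first step in muscle. Its log2 intensity was 10.61, 10.60 and 10.62 in the control samples and 10.61, 10.53 and 10.81 in the knockout samples of arrays 1, 2 and 3. The controls were nearly equal, and the knockout samples fell on both sides of them, so the groups overlapped. The mean ratio was 0.041 ± 0.14, with an interval from -0.15 to 0.23 (limma, adjusted p = 0.753). Bcat1, the cytosolic isoform, was not well above background in any control sample and was above it in at most 2 knockout samples, so it was not tested.

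The dehydrogenase complex is built from E1 (a tetramer of alpha subunits from Bckdha and beta subunits from Bckdhb), E2 (from Dbt, the lipoylated core that passes the acyl group to coenzyme A) and E3 (from Dld). Bckdha had log2 intensities of 13.51, 13.85 and 13.73 in the controls and 13.88, 13.88 and 13.94 in the knockouts. All knockout samples lay above all controls, by little, because the controls varied more than the knockouts. Such a separation with the knockout above was found for 14% of all genes tested, and in either direction for 25.8%, while Bckdha was the 1 gene of the 10 that showed it. Bckdha's ratios were 0.37, 0.034 and 0.21, a mean of 0.20 ± 0.17 or 1.15-fold, with an interval from -0.0081 to 0.42 (limma, adjusted p = 0.197).

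Bckdhb, the partner subunit, had log2 intensities of 12.25, 11.99 and 11.97 in the controls and 12.14, 12.10 and 12.19 in the knockouts, which overlapped. Its mean ratio was 0.077 ± 0.17 (limma, adjusted p = 0.584). Between the E1 subunits the ratio of Bckdha exceeded that of Bckdhb by 0.47 on array 1 but was below it by a small amount on the others, with differences of -0.073 and -0.018.

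Dbt had the lowest mean ratio of the 10 genes and the largest SD over the arrays, by little over Mccc1. Its log2 intensity was 9.04, 8.73 and 8.65 in the controls and 8.50, 8.22 and 8.69 in the knockouts, so that the knockout samples of arrays 1 and 2 lay below every control and that of array 3 did not. The ratios were -0.54, -0.51 and 0.042, a mean of -0.34 ± 0.33 or 79.2% of control (limma, adjusted p = 0.192). Without array 3 the mean was -0.53 and still did not pass (limma, adjusted p = 0.0757, against a range of 0.0757 to 0.616 over 16 alternatives). The Dbt probe was of middling signal, at the intensity percentile of 44.6 among the genes tested. Set against its complex partner on the same arrays, the ratio of Bckdha minus that of Dbt was 0.91, 0.54 and 0.17, a mean of 0.54 ± 0.37, given without a test. Dld, which serves other dehydrogenase complexes as well, had -0.065 ± 0.20, and 0.18 with median centring, while its dimmer probe had 0.077 ± 0.19.

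Bckdk encodes the kinase that inactivates the complex by phosphorylating its E1 alpha subunit. Its log2 intensity was 11.72, 11.63 and 11.97 in the controls and 11.67, 11.73 and 12.09 in the knockouts. The groups overlapped, and the highest sample of each group was the one on array 3, so these samples differed more between arrays than between genotypes. The mean ratio was 0.058 ± 0.092, with an interval from -0.11 to 0.22 (limma, adjusted p = 0.596). Ppm1k, the phosphatase that opposes the kinase, had ratios of -0.30, -0.33 and -0.038, a mean of -0.22 ± 0.16 (limma, adjusted p = 0.168). The kinase's ratio was above the phosphatase's on all 3 arrays, by 0.25, 0.43 and 0.16, a description of a pair chosen after its values were seen.

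**Figure D2:**
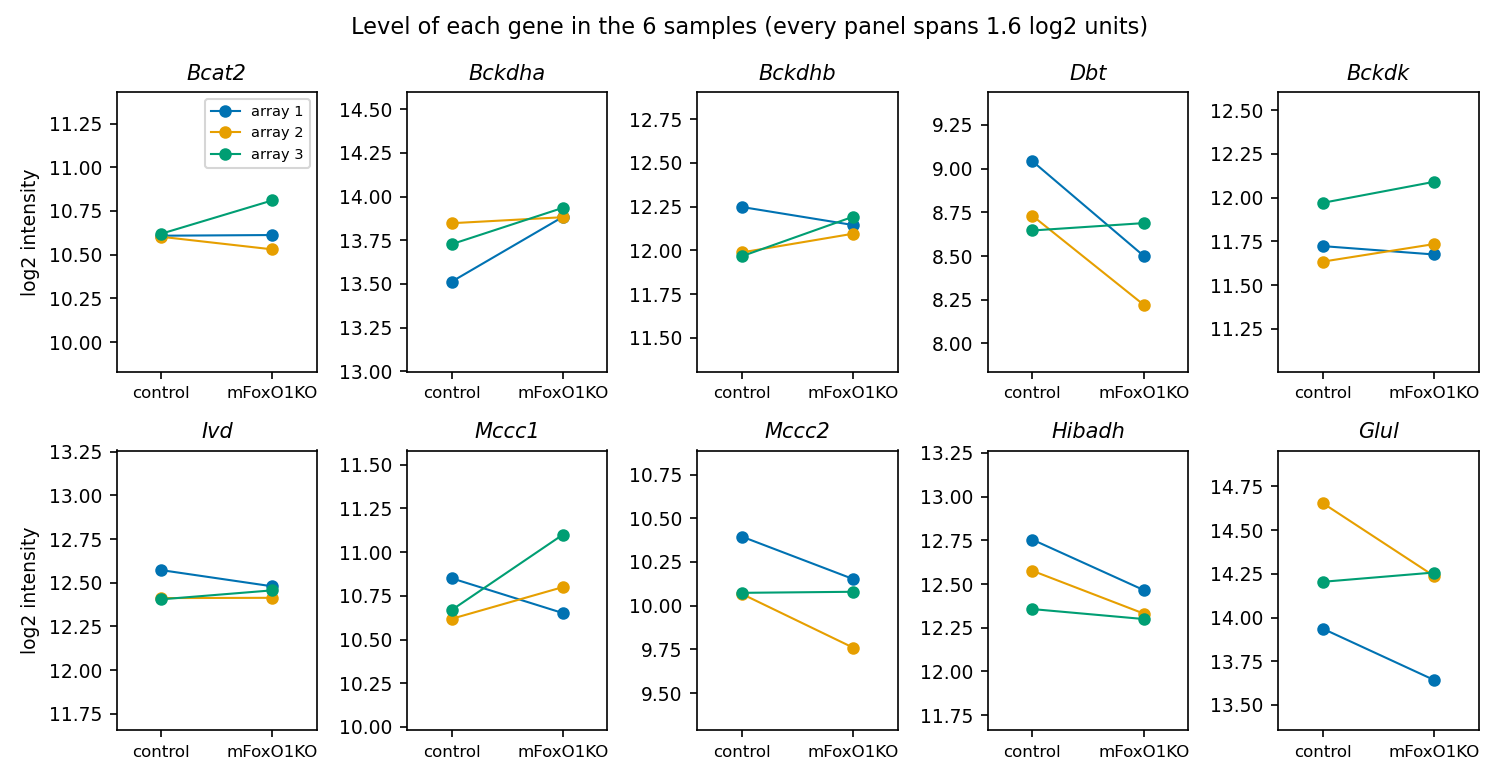
Log2 intensity (y axis, each panel spanning 1.6 log2 units) of each of the 10 genes in the 3 control and 3 mFoxO1KO samples. Lines join the samples hybridised to the same array. The groups overlap in every panel but that of Bckdha, and the Dbt lines of arrays 1 and 2 drop while that of array 3 is nearly flat.

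On the leucine route Ivd encodes isovaleryl-CoA dehydrogenase, and Mccc1 and Mccc2 encode the biotin-bearing alpha subunit and the beta subunit of methylcrotonyl-CoA carboxylase. Ivd had log2 intensities of 12.57, 12.41 and 12.41 in the controls and 12.48, 12.41 and 12.46 in the knockouts. It was the member nearest to 0 and the one with the smallest SD, at -0.013 ± 0.073, and its interval from -0.17 to 0.14 was the narrowest of the 10 (limma, adjusted p = 0.907).

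The carboxylase subunits had mean ratios of opposite sign, and neither passed. The brighter Mccc1 probe had log2 intensities of 10.85, 10.62 and 10.67 in the controls and 10.65, 10.80 and 11.10 in the knockouts, which overlapped. Its ratios of -0.20, 0.18 and 0.43 spread widely around a mean of 0.14 ± 0.32 (limma, adjusted p = 0.530). The other Mccc1 probe had ratios of -0.30, -0.27 and 0.018, a mean of -0.18 ± 0.17 (limma on every probe, adjusted p = 0.238), so the sign of this gene depends on the probe. Mccc2 had log2 intensities of 10.40, 10.07 and 10.07 in the controls and 10.15, 9.76 and 10.08 in the knockouts, and ratios of -0.24, -0.31 and 0.0059. Its mean of -0.18 ± 0.17 was like that of the dimmer Mccc1 probe (limma, adjusted p of Mccc2 = 0.231). The ratios of Mccc2 were near those of the dimmer probe on each array, and near those of the brighter on array 1 only.

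Hibadh encodes 3-hydroxyisobutyrate dehydrogenase of the valine route, whose substrate leaves muscle and is known to promote fatty acid uptake. Its log2 intensity was 12.75, 12.58 and 12.36 in the controls and 12.47, 12.33 and 12.30 in the knockouts, with the control of array 3 below the knockout sample of array 1. Each knockout sample was below its own control, but the groups overlapped. The ratios were -0.29, -0.24 and -0.057, a mean of -0.20 ± 0.12 or 87.3% of control, with an interval from -0.38 to -0.015 (limma, unadjusted p = 0.0392, adjusted p = 0.166). The 3 named genes whose ratios over the 3 arrays lay nearest to those of Hibadh were Cep57l1, Bccip and R3hdm1, at Euclidean distances of 0.022, 0.030 and 0.034.

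Of the 9 members searched, Hibadh was also the one whose promoter held a forkhead motif. No promoter sequence was at hand for Dbt, which was therefore not searched. In the 250 bases before the start of 9 of the 10 genes (11 windows, RefSeq sequences of build GRCm38.p6), TGTTTAC was searched on both strands, where GTAAACA is its reverse complement. It was found in 1 of the 11 windows and in 3.17% of all 32851 promoter windows of that length. TGTTTAT, a related forkhead motif with no overlap to the match, was in 0 of the 11 windows and in 4.16% of all. The Hibadh window, chr6:52640301-52640550 on the minus strand of GRCm38.p6, is shown from 5′ to 3′ because it carries that match, which is in capitals and spans the bases from 234 to 228 before the start.
Hibadh promoter: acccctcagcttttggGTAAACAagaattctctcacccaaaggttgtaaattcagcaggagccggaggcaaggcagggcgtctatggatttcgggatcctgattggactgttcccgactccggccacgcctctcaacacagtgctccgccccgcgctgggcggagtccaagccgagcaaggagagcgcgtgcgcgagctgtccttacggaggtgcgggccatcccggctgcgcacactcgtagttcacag
The match is a description of the sequence and was not tested as a binding site.

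Glul encodes glutamine synthetase, which joins ammonia to glutamate and so stores nitrogen from transamination in a form that muscle exports. Its log2 intensity was 13.94, 14.66 and 14.20 in the controls and 13.64, 14.24 and 14.26 in the knockouts. Controls differed among themselves by more than any array's ratio, and the groups overlapped. The ratios were -0.29, -0.42 and 0.053, a mean of -0.22 ± 0.24 or 85.9% of control (limma, adjusted p = 0.254). Without array 3 the mean was -0.36 (limma, adjusted p = 0.131, where the 17 alternatives gave 0.131 to 0.799).

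Array 3 stood apart for these genes. The highest of a gene's 3 ratios was on array 3 for 9 of the 10 genes, the exception being Bckdha, and the lowest was on array 3 for none. Among all genes tested the highest ratio was on array 3 for 33.1%. For the 10 genes the median ratios of arrays 1, 2 and 3 were -0.15, -0.035 and 0.087, while those of all genes were 0.022, -0.0018 and 0.0079. Dbt, Mccc2 and Glul shared a sharper form of this, with ratios from -0.24 to -0.54 on arrays 1 and 2 and from 0.0059 to 0.053 on array 3. The 3 arrays lay on 1 slide, and what sets array 3 apart was not tested.

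The other enzymes and carriers of the pathway lay in a similar range. Of 20 on the list 19 were tested and 0 passed in limma, against 2.75% of all genes, while 6 had an unadjusted p below 0.05 (26.8% of all genes). Their median ratio was -0.065, with 7 above 0 and 12 below. With median centring in place of loess it was 0.15, with 14 of 19 above 0, close to the 0.156 of all genes under that setting. Of the 17460 genes tested 13786 were then above 0. After loess 13 of the 19 had their highest ratio on array 3. The 3 with the smallest p were all below 0 on every array. Aldh6a1, the methylmalonate semialdehyde dehydrogenase that follows Hibadh in valine breakdown, had -0.31 ± 0.17 (limma, adjusted p = 0.106), although its other probe had 0.070. Slc25a44, the mitochondrial carrier of branched-chain amino acids, had -0.23 ± 0.12 (limma, adjusted p = 0.125), and its other probe 0.040. Mcee, an epimerase of the propionyl-CoA route shared by valine and isoleucine, had -0.21 ± 0.096 (limma, adjusted p = 0.127). With median centring these means were near 0, at -0.029 for Aldh6a1, -0.079 for Slc25a44 and -0.0045 for Mcee. Aldh6a1 passed in a fit of the separate channels with the array as a block (limma, adjusted p = 0.0417) and in none of the other 16 alternatives.

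**Figure D3:**
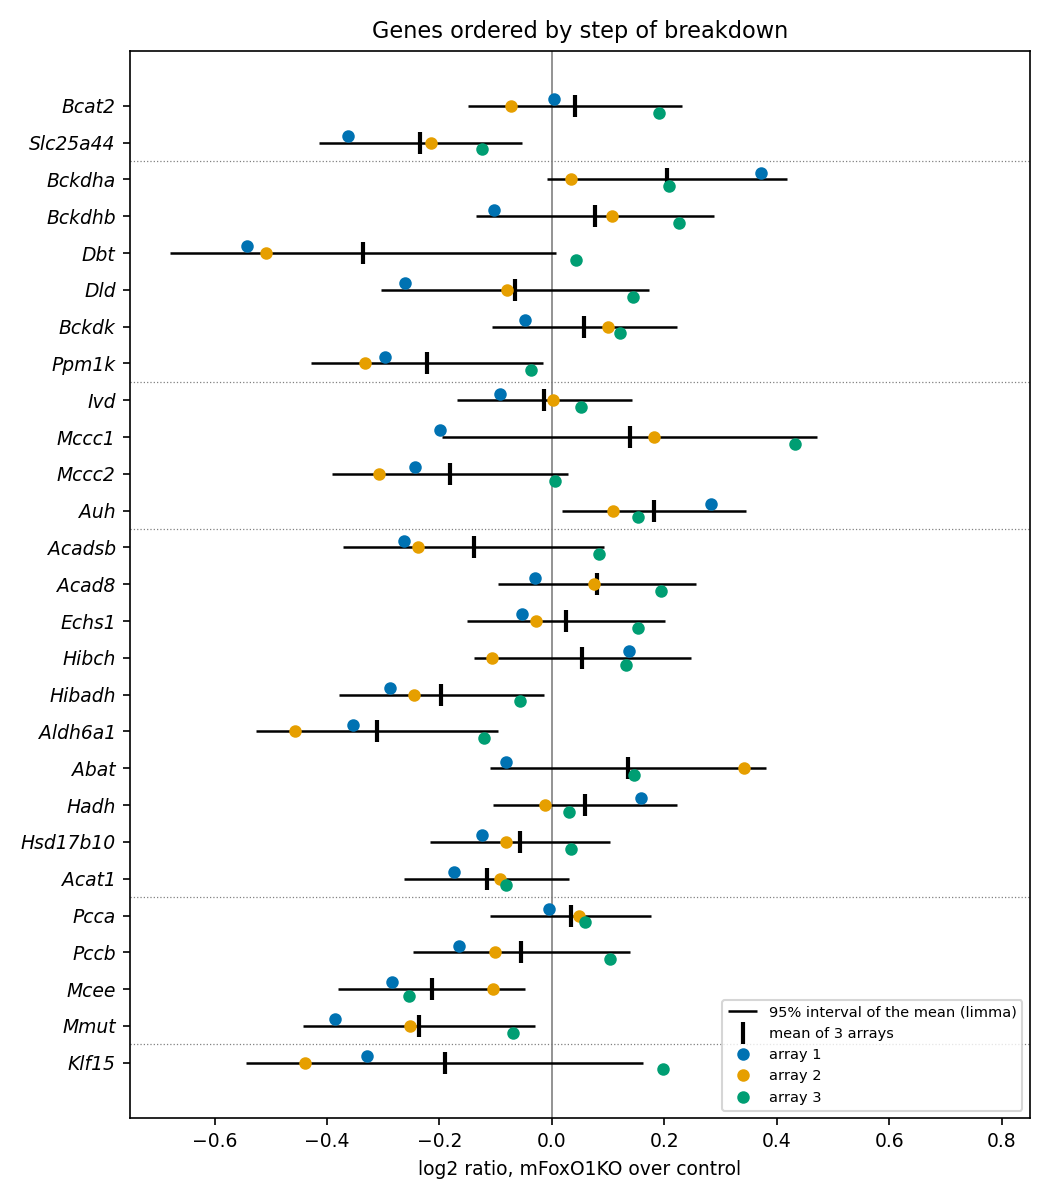
Log2 ratio of mFoxO1KO over control (x axis) for 9 of the 10 genes and other tested pathway genes, ordered by step, with points for the arrays, ticks for the mean and lines for the 95% interval from limma. Dotted lines part the transamination and carrier step, the dehydrogenase complex with its kinase and phosphatase, the leucine route, the isoleucine and valine routes, the propionyl-CoA route and the regulator Klf15. The means drawn lie between -0.34 and 0.20 in every step.

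Genes that bring amino acids into the cell or handle glutamate and alanine had ratios from -0.64 to 1.04, a wider range than the breakdown genes, and none of them passed either. Among the transporters 11 of 12 were tested and 0 passed in limma, against 2.75% of all genes. Of the 11, 7 had an unadjusted p below 0.05, where 26.8% of all genes did. Their median ratio was 0.30, with 9 above 0 and 2 below. Slc7a5, the light chain of the large neutral amino acid exchanger that carries leucine, had ratios of 0.44, 0.38 and 0.29, a mean of 0.37 ± 0.077 (limma, adjusted p = 0.0544). That probe was dim, at the intensity percentile of 16.2 among the genes tested. The other Slc7a5 probe, dimmer still, had 0.18 ± 0.12 (limma on every probe, adjusted p = 0.183). Slc7a5 passed in 5 of 16 alternatives, over which its mean ran from 0.28 to 0.90. Slc7a8, a second exchanger of neutral amino acids, had 0.52 ± 0.21 (limma, adjusted p = 0.0604) and passed in 2 of 17, and Slc7a6, an exchanger of cationic and neutral amino acids, had -0.44 ± 0.14 (limma, adjusted p = 0.0570) and passed in 2 of 16.

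In glutamate, glutamine and alanine metabolism 12 of 15 genes were tested and 0 passed in limma, against 2.75% of all genes. Of the 12, 8 had an unadjusted p below 0.05, where 26.8% of all genes did, and the median ratio was 0.075. Ppat, which spends glutamine in purine synthesis, had -0.40 ± 0.14 (limma, adjusted p = 0.0641). Its second probe, of nearly equal signal, had 0.050 ± 0.11 (limma on every probe, adjusted p = 0.667), so the sign of Ppat depends on the probe. Asns, the asparagine synthetase, had 1.66, 0.72 and 0.74, a mean of 1.04 ± 0.54 (limma, adjusted p = 0.0692), and passed in 4 of 16 alternatives, among them without array 1 (adjusted p = 0.0288). Gpt2, the mitochondrial alanine transaminase, had -0.33 ± 0.11 (limma, adjusted p = 0.0748), and -0.045 with median centring. The aspartate transaminase genes were named after their values were seen. Got1 had 0.26 ± 0.060 (limma, adjusted p = 0.0817) and Got2 0.23 ± 0.085 (limma, adjusted p = 0.106). With median centring their means were 0.58 and 0.51.

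**Figure D4:**
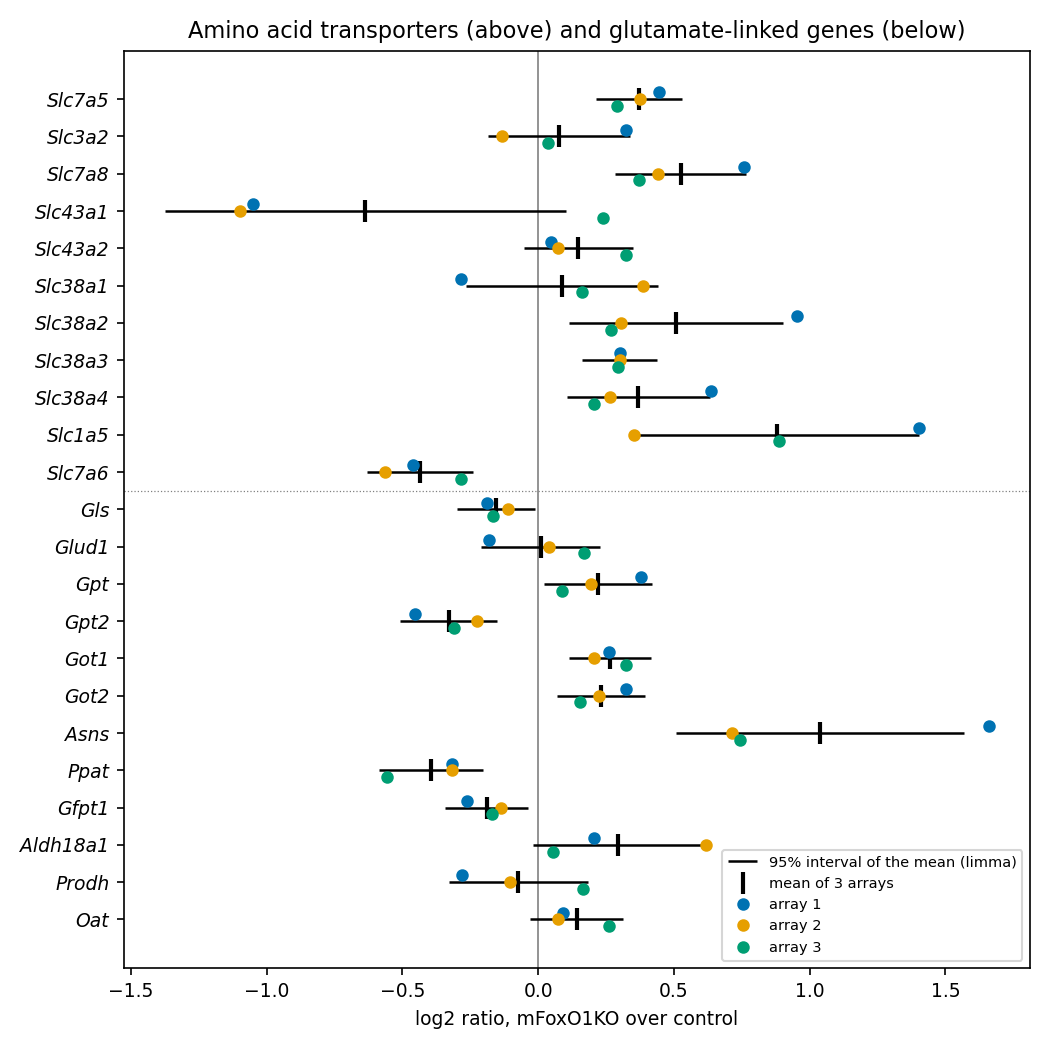
Log2 ratio of mFoxO1KO over control (x axis) for the 11 amino acid transporters tested and the 12 genes of glutamate, glutamine and alanine metabolism tested, parted by a dotted line. Points are arrays, ticks the mean and lines the 95% interval from limma. Asns has the highest mean, 1.04, and Slc43a1 the lowest, -0.64, with its array 3 point on the other side of 0.

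The tissue was checked against markers of muscle and of other cells it could hold, since in whole muscle fewer cells of a type and less RNA per cell cannot be told apart. Muscle fibre markers were bright in all samples, with a summed level over 12 genes of 732400 to 812300 in controls and 800300 to 814600 in knockouts on the linear intensity scale, and their median ratio was 0.016. The median ratios of adipocyte markers on arrays 1, 2 and 3 were 2.89, 0.22 and 1.50, with all 10 means tested above 0 and 0 of 10 past the threshold. Their summed level was 40590 to 93970 in controls and 102400 to 208300 in knockouts, while Lep was not above background in any sample and Ucp1 only on 2 arrays. Among the 10 genes Bckdha had its ratios in the same array order as these markers (0.37, 0.034 and 0.21). Genes of the other pathway lists with that order included Auh, Hibch, Hadh, Slc3a2, Asns and Slc1a5, the last with 1.40, 0.35 and 0.89. The part of fat in those values was not tested, and the share of all genes with that array order was not counted. For the other 9 genes the highest ratio was on array 3, as it was for 33.1% of all genes. The part of fat in their values was not tested either. Endothelial, macrophage, fibroblast and Schwann cell markers had median ratios between 0.068 and 0.16, with none past the threshold.

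**Figure D5:**
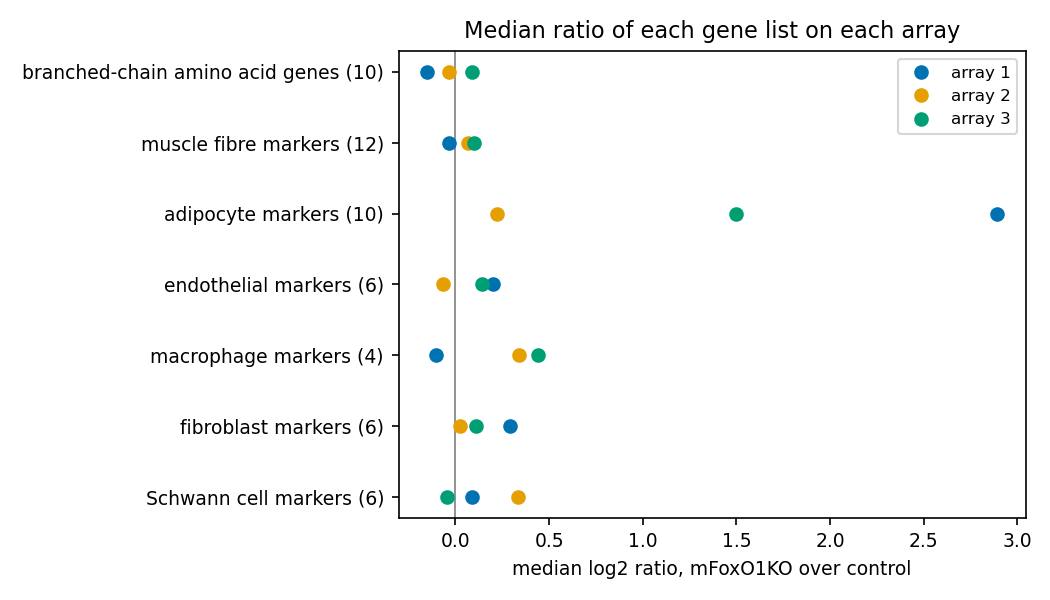
Median log2 ratio of mFoxO1KO over control (x axis) on each array (points) for the 10 branched-chain amino acid genes and for each marker list, with the number of genes tested in brackets. The adipocyte markers spread from 0.22 to 2.89 between arrays, whereas the medians of the 10 genes stay between -0.15 and 0.087.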

How the data were processed

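The deposited files are Agilent Feature Extraction output, 1 per array, with 44397 spots. Per the file headers the software version was 11.5.1.1, whereas the submitters' processing notes name 9.3.2.1. Labelling used a 2-colour kit for small inputs and 0.2 µg of RNA, per the labels. The deposited files hold median spot and background intensity as scanned, processed intensity, flags, and a log10 ratio of processed Cy5 over Cy3. Median intensity was corrected with normexp (offset 50) and normalized by loess within arrays, with control spots at weight 0 (limma 3.58.1, R 4.3.3). Between 281 and 319 outlier spots per array were left out. A probe was kept if well above background in the same channel on all 3 arrays, and the brightest kept probe stood for its gene. Accessions gave symbols to 27508 of 39429 probes through a RefSeq table of GRCm38.p6. Probes without a symbol were not left out for that reason, and shares of all genes and the adjustment of p-values include them. Gene coordinates are not given because the array design's build, per the file headers, is an earlier one. Levels per channel come from Aquantile normalization after loess.

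The mean ratio was tested against 0 (lmFit and eBayes, two-sided, adjusted over 17460 genes). The pairing comes from the shared array. The fit was tested on simulated data. The members and lists were chosen with earlier results of these data known. By rule the text names the members, Foxo1, the 3 genes of each of the other 3 pathway lists (enzymes and carriers, transporters, glutamate metabolism) with the smallest p and any past the threshold, and the 3 genes nearest to the member with the smallest p. Every other gene named was chosen outside this rule, with its values seen. A gene of the enzyme list is counted but not reported here by name or drawn. Median Cy3 signals were 90.5 to 97 against backgrounds of 35.5 to 38, and median Cy5 signals 99 to 102 against 50.5 to 52. The number of arrays limits the precision. Alternatives covered background, signal, dye and array normalization, filter, probe choice, variance model, separate channels and each array left out.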

Additional observations from a re-analysis of the deposited data

How the results depend on the processing

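None of the 10 genes passed under any of the 17 alternatives (limma), and Bckdha, Bckdhb, Bckdk and Dbt kept their sign in all that could be run. Dbt has 16, since it is not above the median intensity. Median centring in place of loess raised the median of all genes to 0.156 and turned the sign of Ivd (0.22), Mccc2 (0.021), Hibadh (0.041) and Glul (0.087), each below that median except Ivd. With the mean of its probes Mccc1 had -0.022. With each array left out in turn, Ivd ranged from -0.046 to 0.026, Bcat2 from -0.034 to 0.098 and Mccc1 from -0.0088 to 0.31.

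The 481 calls over all genes (359 higher, 122 lower) became 264 with plain background subtraction, 212 with processed signals and with the deposited log ratios, 1205 with median centring (1154 higher, 51 lower), 842 with scale normalization, 55 when both channels had to be above background, 747 without the filter, 9 above the median intensity, 0 with trend and robust variances (4952 genes had an unadjusted p below 0.05), 1651 in separate channels with the replicate block and 216 with no replicate block. With each array left out they ranged from 50 to 434. Aquantile leaves ratios as they are.

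Transporters past the threshold numbered 1 without background subtraction and with plain subtraction, 4 with median centring, 2 with scale normalization, 2 without the filter, 4 with the replicate block, and 0 to 1 with an array left out. For glutamate, glutamine and alanine genes the counts were 2 with median centring, 1 with scale normalization, 3 with the replicate block and 0 to 1 with an array left out. For the other enzymes the count was 1 with the replicate block. Foxo1 passed in 14 of 17 alternatives (limma, adjusted p from 8.495e-05 to 0.381), and not without array 2 (0.103), above the median intensity (0.0515) or with trend and robust variances (0.381).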

Other observations

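Beyond the 10 genes, other genes were low on arrays 1 and 2 and not on array 3, as Dbt, Mccc2 and Glul were. Klf15, a zinc finger factor induced by glucocorticoids and known to act on genes of branched-chain amino acid breakdown, had ratios of -0.33, -0.44 and 0.20, a mean of -0.19 ± 0.34 (limma, adjusted p = 0.414), and 0.033 with median centring in place of loess. Slc43a1, a transporter of leucine and other large neutral amino acids, had -1.05, -1.10 and 0.24, the widest split of all genes on the transporter list (mean -0.64 ± 0.76, limma, adjusted p = 0.230). Without array 3 its mean was -1.07 and passed the threshold (limma, adjusted p = 0.0341), the only alternative of 17 in which it did. These genes were singled out after their values were seen.

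Fibre type genes also differed between arrays. Myh2, the myosin heavy chain gene of fast oxidative fibres, had ratios of -1.69, -0.34 and 1.36, in the same array order as the medians of the 10 genes (-0.15, -0.035 and 0.087). Tnnt1 and Myh7, genes of slow fibres, had other orders, with -0.94, 0.56 and -0.47 for Tnnt1 and -0.80, -0.050 and -0.56 for Myh7. The Myh7 probe was dim, at the intensity percentile of 10.6 among the genes tested. Myh4, of fast glycolytic fibres, had -0.067, 0.13 and 0.28, again in the order of those medians, which not every one of the 10 genes followed. On the list of muscle fibre markers Myh1, Des and Ttn (by its brightest probe) had that order too. Acta1, Ckm, Mylpf, Tnnt3 and Pvalb did not, and the share of all genes with that order was not counted. None of the muscle fibre markers passed (limma), and whether fibre make-up moves with the breakdown genes was not tested.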
